A study of Rattus norvegicus with 6 samples.

Results

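Osteoclasts are the cells that dissolve bone. They form when precursors of the monocyte and macrophage lineage fuse under the control of the cytokines M-CSF and RANKL. Signalling from RANK and from receptors that carry immunotyrosine adaptors raises calcium and activates NFATc1, the transcription factor that governs the late osteoclast genes together with MITF and other partners. DC-STAMP and OC-STAMP are membrane proteins needed for cell fusion, and the mature cell secretes cathepsin K and tartrate-resistant acid phosphatase at the bone surface and carries the calcitonin receptor. The 8 genes described here encode these steps: Nfatc1 and Mitf (transcription), Oscar (co-stimulatory receptor), Dcstamp and Ocstamp (fusion), Calcr (hormone receptor), and Acp5 and Ctsk (secreted enzymes). They were chosen by name. Each had 1 row in the deposited table, which holds 30600 rows with values, 22050 of them annotated rat genes.

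The values come from RNA-seq of 6 libraries of rat subchondral bone, the bone under the cartilage of the knee joint, whose titles are S10, S12, S13, then S20, S21, S23. The series addresses cold stress and arthritis, but the labels name no temperature, treatment, strain or age for the libraries. All 6 were therefore left without a group, and an effect of cold could not be examined. The labels also do not say whether they are separate animals. Library totals ran from 39990624 to 59200981 counts. Levels are the deposited FPKM, which count fragments per kilobase and per library size, so that different genes can be set side by side. They still varied with transcript length, and differently by library (values below), so orders between genes of unlike length are a description only. In bulk tissue, fewer osteoclasts and less RNA per osteoclast cannot be told apart.

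The sequence next to the start of transcription is shown for 3 of these genes, because Ctsk and Acp5 kept the most constant ratio of any pair over the libraries while Oscar followed another order (values below). RefSeq promoter sequence on the rat build GRCr8, from 250 bases before to 50 bases after the start, was found for 6 of the 8 genes, all but Dcstamp and Nfatc1. Capitals mark CACATG, an E-box of the type bound by MITF, and TGGAAA, the core read by NFAT factors, each searched on both strands, so that TTTCCA is a match to TGGAAA on the other strand. The Ctsk window is chr2:185747298-185747597, plus strand. The Acp5 window, at the second of the 2 listed starts, is chr8:28943880-28944179, minus strand. The Oscar window is chr1:74522633-74522932, plus strand.
Ctsk: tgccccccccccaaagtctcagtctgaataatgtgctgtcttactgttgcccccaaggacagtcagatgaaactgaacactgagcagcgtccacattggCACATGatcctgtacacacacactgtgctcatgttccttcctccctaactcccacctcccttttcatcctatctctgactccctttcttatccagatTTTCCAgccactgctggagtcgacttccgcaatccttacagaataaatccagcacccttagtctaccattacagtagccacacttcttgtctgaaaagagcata
Acp5: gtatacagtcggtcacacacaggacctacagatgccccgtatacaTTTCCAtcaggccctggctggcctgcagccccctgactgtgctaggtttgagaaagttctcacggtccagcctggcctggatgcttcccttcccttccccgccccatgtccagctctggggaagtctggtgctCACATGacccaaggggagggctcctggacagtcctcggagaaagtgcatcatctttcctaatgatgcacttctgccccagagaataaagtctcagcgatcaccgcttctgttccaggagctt
Oscar: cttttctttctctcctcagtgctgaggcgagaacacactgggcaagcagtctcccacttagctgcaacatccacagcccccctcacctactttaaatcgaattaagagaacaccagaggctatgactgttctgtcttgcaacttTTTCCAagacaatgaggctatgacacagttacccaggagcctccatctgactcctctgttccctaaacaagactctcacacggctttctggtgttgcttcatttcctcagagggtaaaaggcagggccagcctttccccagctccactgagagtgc

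Both the Ctsk window and this Acp5 window hold 1 CACATG and 1 TGGAAA match. In Ctsk the matches begin 151 and 54 bases before the start, and in Acp5 72 and 205 bases before it. Oscar holds 1 TGGAAA match, 106 bases before the start. Of 33469 promoter windows of the same length, 14% hold CACATG and 22.7% hold TGGAAA. The palindrome CACGTG (6.42% of windows) and the AP-1 sequence TGANTCA (7.33%) were in none of the members' windows, and GAGGAA, a PU.1-type core (27.6%), was in those of Ctsk and Oscar and overlapped none of the capitals. The first Acp5 start and the windows of Ocstamp, Calcr and Mitf hold none of these letters. A match is a description of the sequence and not a bound site. Which Acp5 start these libraries used was not tested, nor was any link between the matches and the levels.

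The 8 genes fell into 2 enzyme genes of very high level and 6 genes of regulators, receptors and fusion proteins at low levels. Ctsk, which encodes the collagen-cleaving protease cathepsin K, had a median of 407 FPKM, above 98.4% of the 11625 annotated genes whose median reached 1 FPKM (called expressed genes below). Acp5, which encodes tartrate-resistant acid phosphatase, had a median of 262 FPKM, above 97.7% of them. Oscar, a collagen receptor of osteoclasts and other myeloid cells, and Nfatc1 lay at 5.71 and 5.16 FPKM, below the expressed-gene median of 9.11 FPKM. Dcstamp had a median of 1.39 FPKM. Mitf, Ocstamp and Calcr were under the 1 FPKM limit, with medians of 0.983, 0.449 and 0.262 FPKM.

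**Figure D1:**
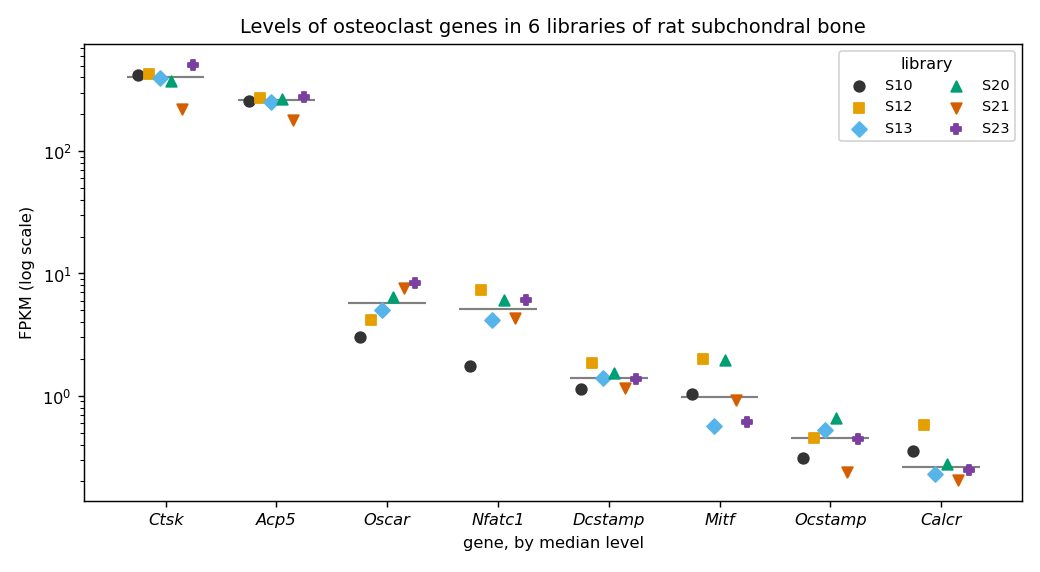
FPKM on a log axis of the 8 osteoclast genes in 6 libraries, ordered by median; each symbol is a library and each grey line the median. Ctsk and Acp5 lie between 181 and 508 FPKM, the other 6 genes between 0.205 and 8.33 FPKM, and S21 (orange triangles) is lowest for Ctsk, Acp5, Ocstamp and Calcr.

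Most neighbours in this order overlapped. Ctsk was higher than Acp5 in 6 of 6 libraries, although their ranges overlapped. Acp5 was 23.6 to 84.1 times as high as Oscar, with no overlap. Oscar was above Nfatc1 in 5 of 6 libraries, the exception being S12. Nfatc1 was above Dcstamp in 6 of 6, Dcstamp above Mitf in 4 of 6, Mitf above Ocstamp in 6 of 6 and Ocstamp above Calcr in 4 of 6 libraries. The ranges of each of these later pairs overlapped. FPKM varied with transcript length differently by library, and the Mitf FPKM are not on the same length scale in all libraries (values below). The part of length in this order was not tested.

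The secreted enzymes were lowest in S21. Ctsk (ENSRNOG00000021155) had 220 FPKM in S21, 372 in S20, 398 in S13, 415 in S10, 427 in S12 and 508 in S23. S21 stood apart, since the next library up was 1.69 times as high, and the highest was 2.31 times as high. Acp5 (ENSRNOG00000046261) had 181 FPKM in S21, 254 in S13, 256 in S10, 268 in S20, 273 in S12 and 277 in S23. The 5 libraries other than S21 lay within 254 to 277 FPKM, and S21 was again below them all. Counts of 20174 (Ctsk) and 16444 (Acp5) in S21 make the counting error of these values small. In 95% exact Poisson intervals, which cover counting error only, Ctsk in S21 spanned 336 to 346 CPM (counts scaled to the library total) against 569 to 584 CPM in S20, the next library up.

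S21 is seldom the lowest library: it was so for 4.77% of expressed genes, and 0.989% were lowest in S21 and highest in S23 as Ctsk and Acp5 were. Both patterns were chosen after the values were seen, so the shares are a description and not a test. When the FPKM were divided by TMM factors (trimmed mean of M-values, a scaling that centres most genes), Ctsk in S21 was 226 FPKM against 332 to 544 in the other libraries, and Acp5 186 against 236 to 336. The low value in S21 thus did not rest on the scaling, whereas the highest library did: it moved from S23 to S10 for both genes under TMM and median-ratio factors. Without S21 the range of log2(FPKM + 1) of Ctsk fell from 1.21 to 0.45, and that of Acp5 from 0.61 to 0.12.

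Within a library the ratio of 2 genes does not depend on library scaling, but it can depend on transcript length. Of the 28 pairs Ctsk to Acp5 varied least. The ratio was 1.21 in S21, 1.39 in S20, 1.57 in S12 and in S13, 1.62 in S10 and 1.84 in S23. S21 was thus lower for Ctsk than for Acp5, each set against its other libraries. The next most constant pairs were Acp5 to Dcstamp, with a 1.55-fold spread of the ratio, and Dcstamp to Calcr, with a 1.91-fold spread. The least constant pairs were Oscar to Mitf (6.52-fold), Nfatc1 to Mitf (5.80-fold) and Calcr to Oscar (5.22-fold). In log2(FPKM + 1), the shortest of 20 transcript length classes had median deviations of 0.03 in S10 and -0.25 in S20. The longest had -0.66 and 0.50. Median lengths implied by count and FPKM were 1547 bases for Ctsk, 1530 for Acp5 and 1137 for Dcstamp. They were 2218 for Oscar, 3883 for Calcr and 4129 for Nfatc1, and 2352 to 5410 by library for Mitf. The ratio of Dcstamp to Calcr was 3.23 in S10 and in S12, and 5.54 to 6.15 in the other libraries. The part of length in the ranking was not tested.

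**Figure D2:**
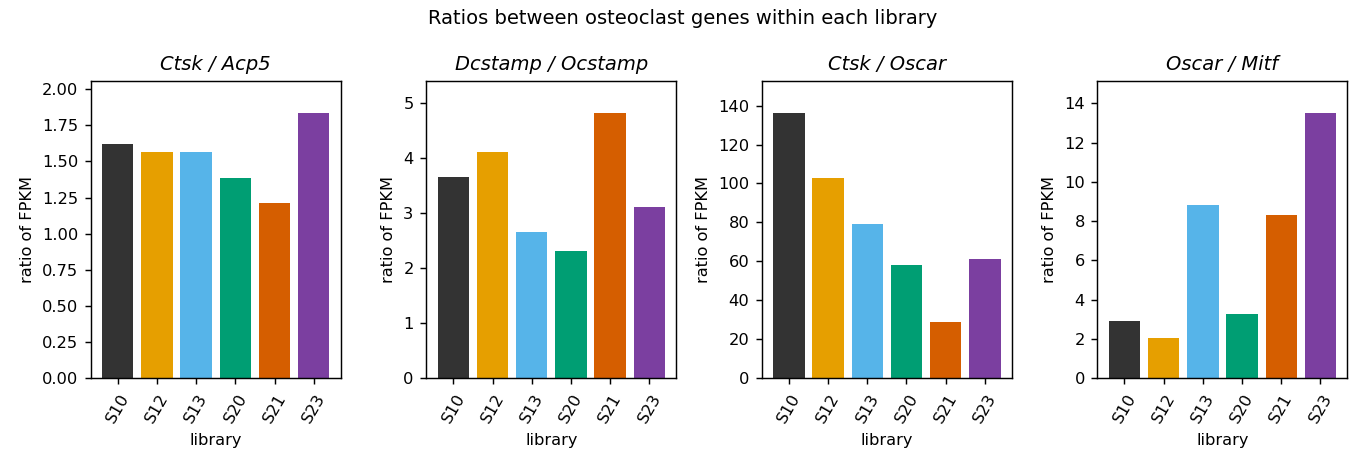
Ratio of the FPKM of 2 genes within each library, as bars from 0, for Ctsk to Acp5, Dcstamp to Ocstamp, Ctsk to Oscar and Oscar to Mitf. Ctsk to Acp5 stays between 1.21 and 1.84, whereas Ctsk to Oscar spans 28.6 in S21 to 136 in S10 and Oscar to Mitf 2.07 in S12 to 13.5 in S23. The Mitf FPKM are not on the same length scale in all libraries.

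The fusion genes were low but measured in every library. Dcstamp (ENSRNOG00000004704) had 1.14 FPKM in S10, 1.15 in S21, 1.38 in S23, 1.401 in S13, 1.54 in S20 and 1.87 in S12, from 52 to 92 counts. S12 was highest and S10 and S21 lowest, but the counting intervals of the libraries separated in 1 of 15 library pairs. Overlapping intervals leave a difference unsettled and do not show that it is absent. Ocstamp (ENSRNOG00000019110) had 0.239 FPKM in S21, 0.310 in S10, 0.443 in S23, 0.454 in S12, 0.528 in S13 and 0.664 in S20, from 28 to 63 counts. S21 and S20 were its extremes, 2.78-fold apart, and 3 of 15 pairs separated. Dcstamp exceeded Ocstamp in FPKM by 2.32 times in S20 to 4.82 times in S21.

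Calcr, the receptor through which calcitonin halts resorption, was the lowest of the 8. Calcr (ENSRNOG00000010053) had 0.205 FPKM in S21, 0.228 in S13, 0.246 in S23, 0.278 in S20, 0.352 in S10 and 0.579 in S12. S12 was the highest, with 98 counts and an interval of 1.80 to 2.70 CPM that did not overlap those of S13, S20, S21 and S23 and barely cleared that of S10 (1.04 to 1.79 CPM). The other 5 libraries had 44 to 55 counts. The place of S12 and S21 depended on transcript length. With the median of each length class removed, S10 was highest and S20 lowest for Calcr. Its range in log2(FPKM + 1) was then 0.85, against 0.39 in the deposited values. The markers of several other cell types were highest in S12 as well: the summed FPKM of the 4 of 5 skeletal muscle markers with a row was 92.2 in S12 against 3.66 in S23, that of 4 adipocyte markers 386 against 77.9, and that of the 3 of 4 endothelial markers with a row 17.6 against 7.71 in S10. Their part in the Calcr value was not tested.

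Counting all 8 genes, 4 were lowest in S21 in the deposited FPKM (Ctsk, Acp5, Ocstamp and Calcr) and 5 under TMM factors (Dcstamp joined them), against 4.77% and 5.19% of expressed genes. The latter shares are over genes of at least 1 FPKM, which Ocstamp and Calcr did not reach. In S21 the counting interval of Calcr (0.583 to 1.06 CPM) overlapped those of all libraries but S12. That of Ocstamp (0.370 to 0.763 CPM) overlapped those of S10, S12 and S23. Dcstamp under TMM factors was at 1.19 FPKM in S21 and 1.28 in the next library. The lowest place of S21 was thus resolved from counting error for Ctsk and Acp5 only. The genes of transcription and co-stimulation were lowest elsewhere: Nfatc1, Oscar and Mitf in S10, S10 and S13. The summed FPKM of the 5 mast cell markers was lowest in S21 too, at 51.2 against 88.4 in S10. Of those 5, Cpa3 and Tpsab1 were lowest in S21 in the deposited FPKM, Cma1 in S23, Ms4a2 in S13 and Kit in S10. Of the 5 T cell markers 2 were lowest in S21, Cd3d and Lck, and their summed FPKM was 21.2 there within 17.1 in S20 to 36.4 in S13. The 4 of 5 B cell markers with a row summed to 38.0 FPKM in S21, within 28.9 in S23 to 133 in S12. The part of these cell types in the osteoclast values was not tested.

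**Figure D3:**
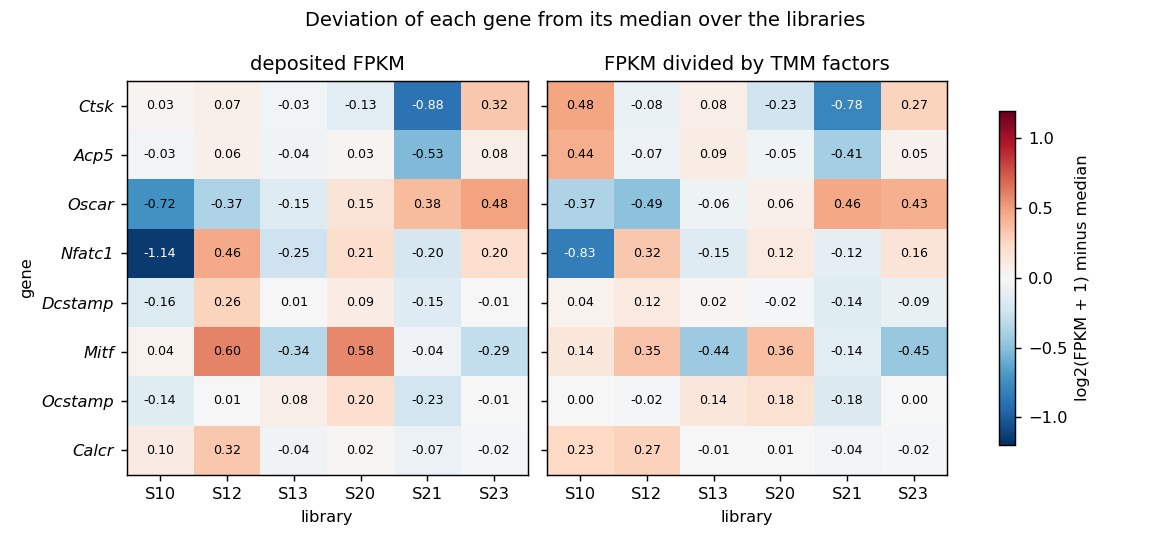
Deviation of each gene in each library from its median over the 6 libraries, in log2(FPKM + 1), for the deposited FPKM (left) and FPKM divided by TMM factors (right); red is above and blue below the median. Ctsk is at -0.88 and -0.78 in S21 and Nfatc1 at -1.14 and -0.83 in S10 on the 2 scales, while Oscar is above its median in S21 on both.

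Oscar followed another order than Ctsk: both were highest in S23, but S21 was lowest for Ctsk and second highest for Oscar. The gene (ENSRNOG00000055716) had 8.33 FPKM in S23, 7.67 in S21, 6.41 in S20, 5.02 in S13, 4.15 in S12 and 3.05 in S10, from 270 to 1010 counts. The libraries spread evenly over a 2.73-fold range with S21 near the top, and 14 of 15 library pairs had separate counting intervals. Ctsk had 14 such pairs as well, and Acp5 and Nfatc1 13 each. The number was not computed for genes other than the members. The ratio of Ctsk to Oscar spanned 136 in S10 to 28.6 in S21. Being lowest in S10 and highest in S23 was shared with 13.8% of expressed genes. Under TMM factors S21 was highest and S12 lowest, with a 2.21-fold range. The summed FPKM of 8 neutrophil markers was likewise highest in S23 (74092) and second highest in S21 (43722), from 17140 in S20. That sum was second lowest in S12, at 21501, and was 42769 in S10, where Oscar was lowest. The leading markers differed in the place of S21. It was second highest for S100a9 (22762 FPKM), but below S23, S10 and S13 for S100a8 (13039 FPKM). The summed FPKM of the 3 of 4 monocyte markers with a row was 94.7 in S23, 68.7 in S12, 60.3 in S13, 53.5 in S21, 53.1 in S20 and 28.2 in S10, so S12 and S21 stood in the reverse of their order for Oscar. Their part in the Oscar values was not tested. Fcer1g, which encodes the adaptor that OSCAR signals through, was far more abundant, with a median of 425 FPKM and a range of 310 in S20 to 550 in S23.

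Nfatc1 (ENSRNOG00000017146) had the widest range of the 8 in the deposited FPKM, on the log2(FPKM + 1) scale and as a fold. Ctsk was wider on that log2 scale under TMM factors (1.26 against 1.16), median-ratio factors (1.28 against 1.13) and length correction (1.13 against 0.82). Mitf was wider than Nfatc1 under length correction (0.86) and in CPM (2.23 against 1.87). Nfatc1 had 1.76 FPKM in S10, 4.14 in S13, 4.29 in S21, 6.02 in S23, 6.04 in S20 and 7.36 in S12. S10 lay apart from the rest, 2.36 times below the next library, and the whole range was 4.18-fold. S10 was the lowest library for 60.1% of expressed genes and the median expressed gene deviated by -0.31 there on the log2 scale, so its place as lowest is not particular to Nfatc1. The deviation of Nfatc1 was deeper, -1.14, and still -0.83 under TMM factors. Longer transcripts were lower in S10: in the length class around 4106 bases, which holds Nfatc1 (4129 bases), the median deviation was -0.52, against 0.03 in the shortest class. With the median of each length class removed, the range of Nfatc1 narrowed from 1.60 to 0.82, and without S10 it was 0.70.

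Genes of calcineurin, the phosphatase that activates NFAT factors, were all above Nfatc1 in median level. Ppp3r1, the regulatory subunit of calcineurin, ranged from 42.3 to 46.7 FPKM, and Rcan1, a calcineurin inhibitor that NFAT activity is known to induce, from 12.4 to 14.9 FPKM. The catalytic subunit genes Ppp3ca and Ppp3cb had medians of 13.04 and 22.3 FPKM and were both lowest in S10. Nfatc3 ranged from 7.81 in S10 to 22.0 FPKM in S20, with a median of 11.7 FPKM. Nfatc2 had at most 0.321 FPKM, with 57 counts in S12 and 0 counts in S10, which allows up to 3 counts or 0.0750 CPM.

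Mitf (ENSRNOG00000008658), which encodes a basic helix-loop-helix factor of osteoclasts, melanocytes and mast cells, split the libraries into 2 sets of 3. It had 0.567 FPKM in S13, 0.616 in S23, 0.924 in S21, 1.04 in S10, 1.96 in S20 and 2.002 in S12. S12 and S20 were highest, and S10 and S21 lay close together. The counts separated further: 225 in S10, 440 in S12 and 396 in S20, but 72 in S13, 129 in S21 and 69 in S23. In CPM the range was 7.47-fold, against 3.53-fold in FPKM.

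The difference between the 2 scales lay in the transcript length that the deposited count and FPKM imply when combined. For Mitf it was 5410 bases in S10, 5041 in S12 and 4940 in S20, but 2356 in S13, 2352 in S21 and 2369 in S23. No value fell between the 2 sets. For the other 7 genes the length varied by no more than 1.03-fold over the libraries, and the median gene varied by 1.002-fold. A length at least 2 times as long in some library as in another was found in 22 of 12722 genes with at least 20 counts per library (0.173%), and Mitf was 1 of those 22. Another gene of the 22 was split over the same sets of libraries by at least 1.5 times, with the longer values in S13, S21 and S23. The RefSeq table of GRCr8 lists 11 transcripts for Mitf, which is known to use alternative first exons in mouse and human. Which transcripts lie behind the lengths here was not tested. The Mitf FPKM of S10, S12 and S20 and of the other libraries are thus not on the same length scale.

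**Figure D4:**
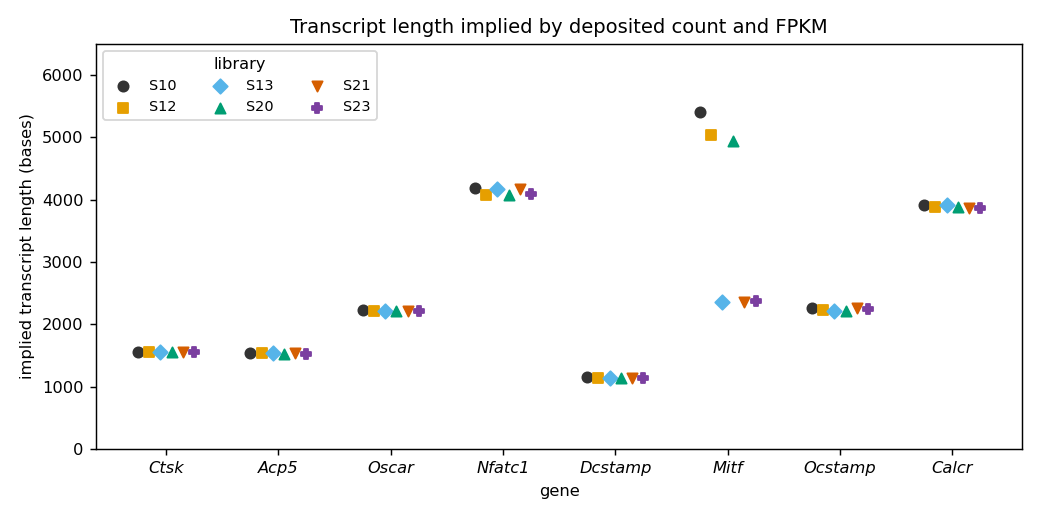
Transcript length in bases implied by the deposited count and FPKM of each gene in each library; each symbol is a library. For 7 genes the symbols coincide, while Mitf lies at 4940 to 5410 bases in S10, S12 and S20 and at 2352 to 2369 bases in S13, S21 and S23.

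Other cell types that use Mitf were checked by their markers. Of the melanocyte markers Tyr and Tyrp1 had 0 counts in all 6 libraries, Sox10 had 4 counts in all, and no marker of the list reached a median of 1 FPKM. The summed FPKM of the 5 melanocyte markers with a row was 0.536 in S20 to 1.09 in S12. All 5 mast cell markers passed 1 FPKM. Ms4a2, a subunit of the IgE receptor, had a median of 19.8 FPKM, and Cma1, a mast cell chymase, 23.3 FPKM. Kit, the receptor that MITF is known to control in mast cells, was highest in S12 (7.13 FPKM) and S20 (6.96 FPKM), the highest libraries of Mitf too, and had 3.28 to 4.27 FPKM in the others. Longer transcripts were in general higher in S12 and S20. In the length class around 5512 bases the median deviations were 0.33 and 0.34, against -0.06 and -0.25 in the shortest class. The part of transcript length in the Kit values was not tested. The summed mast cell FPKM was 62.3 in S12 and 66.9 in S20 against 88.4 in S10, where Cma1 alone had 47.9. The mean deviation of the 5 markers in log2(FPKM + 1) was 0.30 in S12, 0.28 in S10 and 0.12 in S20, and lower in the other libraries. The part of mast cells in the Mitf values was not tested.

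Together, 3 of the 8 genes had a range of at least 1 in log2(FPKM + 1), Nfatc1, Ctsk and Oscar, against 36.6% of expressed genes. All 3 are among the 5 members that are expressed genes by this limit. The added 1 in this scale narrows the ranges of Mitf, Ocstamp and Calcr, which are not. Without S10 the count was 1, Ctsk. The mean deviation of the 5 genes that reached a median of 1 FPKM ran from -0.41 in S10 to 0.22 in S23, a range of 0.62. Under TMM factors the range was 0.36 and the lowest library was S21. Ctsk and Nfatc1, 2 of the 8 and both among these 5 genes, then passed a range of 1, against 29.4% of expressed genes.

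Of 64 further genes in 7 lists of osteoclast biology, many of them also used by other marrow cells, 58 had a median of at least 1 FPKM. Of these 58, 27 had a range of at least 1 (46.6%, against 36.6% of expressed genes), the median range was 0.96 against 0.83, and 35 were lowest in S10 (60.3%, against 60.1%). Another 5 were lowest in S21 (8.62%, against 4.77%): Tnfrsf11a, Traf6, Atp6v0d2, Cd81 and Siglec15. Under TMM factors 3 of the 58 were (5.17%, against 5.19%). These shares count only which library was lowest and do not measure how low S21 was. Whether the pathway shared the low S21 values of Ctsk and Acp5 was not tested.

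Receptors and adaptors covered a wide span. All 10 passed 1 FPKM and 4 had a range of at least 1, against 36.6% of expressed genes. Tnfrsf11a, which encodes the RANKL receptor RANK, ranged from 1.38 FPKM in S21 to 2.65 in S12, and remained lowest in S21 under TMM factors. Csf1r, the M-CSF receptor shared with macrophages, ranged from 16.8 in S10 to 44.8 FPKM in S12. Tyrobp (DAP12), the other immunotyrosine adaptor, ranged from 218 in S20 to 698 FPKM in S23, while Trem2, a receptor that pairs with it, had a median of 5.31 FPKM.

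Among the factors that promote osteoclast formation 12 of 13 passed 1 FPKM, 6 had a range of at least 1 and 9 were highest in S23, against 36.6% and 24% of expressed genes. Spi1 (PU.1), which neutrophils and macrophages also express, ranged from 64.7 FPKM in S20 to 157 in S23, where the neutrophil and monocyte marker sums given above were also highest. The relatives of Mitf were more abundant than Mitf, with medians of 6.40 FPKM for Tfe3 and 10.8 FPKM for Tfeb. The part of granulocytes and monocytes in these values was not tested. All 5 transcriptional brakes passed 1 FPKM, led by Id2 and Irf8 with medians of 56.8 and 41.3 FPKM, and 2 had a range of at least 1, against 36.6% of expressed genes.

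Of the other fusion genes 8 of 9 passed 1 FPKM and 3 had a range of at least 1, against 36.6% of expressed genes. Atp6v0d2, a proton pump subunit required for fusion in mouse, ranged from 8.09 FPKM in S21 to 17.4 in S23, and under TMM factors its lowest library was S20. Siglec15, a lectin of osteoclasts that signals through DAP12, had 1.83 FPKM in S21 and 2.08 to 3.04 in the other libraries, and stayed lowest in S21 under TMM factors. Cd9 and Cd47, which are not particular to osteoclasts, had medians of 153 and 129 FPKM.

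All 14 genes of attachment, acid secretion and other resorption steps passed 1 FPKM, 10 had a range of at least 1 (36.6% of expressed genes did) and 12 were lowest in S10 (60.1% of expressed genes were). Itgb3, the beta chain of the vitronectin receptor of osteoclasts and platelets, ranged from 10.8 FPKM in S10 to 65.0 in S20. Tcirg1, a subunit of the proton pump, and Clcn7, its chloride partner, had medians of 26.9 and 6.39 FPKM. Cst3, which encodes the cathepsin inhibitor cystatin C, was above Ctsk in each library, at 906 to 1518 FPKM. None of the 14 was lowest in S21, where 4.77% of expressed genes were.

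The partners of Calcr were measured well above it, and the genes of its ligands near or at 0. Ramp1, Ramp2 and Ramp3, which turn the calcitonin receptor into an amylin receptor, had medians of 39.9, 11.1 and 10.1 FPKM, and Calcrl, its relative and the receptor for CGRP, 2.85 FPKM. Ramp1 was thus far above Calcr, and these partners also serve Calcrl. Calca, which encodes calcitonin and CGRP, had at most 0.408 FPKM, Calcb 4 counts in all and Iapp (amylin) 0 counts in all 6 libraries.

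The genes most like each member over the 6 libraries were found by the root mean square difference of their median-centred log2(FPKM + 1) values. Ctsk was closest to Cpa3 (0.12), the mast cell carboxypeptidase, which had 5.80 FPKM in S21 and a median of 13.01 FPKM, then to Ccdc107 (0.12) and LOC108348106 (0.13). Within 0.15 of Ctsk lay 4 of 11624 genes. Acp5 was closest to Dennd2a (0.067), Gpr34 (0.077) and Sigirr (0.090), with 44 genes within 0.15. Oscar was closest to LOC102549173 (0.10), Selp (0.10) and Siglec5 (0.14), with 8 genes within 0.15, and Mitf to Cdh1 (0.11), Clic2 (0.12) and Tcf7l2 (0.13), with 5. Nfatc1 had 275 genes within 0.15, led by Ap3b1 (0.043), Vps52 (0.053) and Nlrc5 (0.054). For the low genes the measure picks flat profiles: Dcstamp had 1426 genes within 0.15, led by Obsl1, Tspan13 and Vezt, Ocstamp 813, led by Syce2, Cops2 and Slc7a6os, and Calcr 493, led by Kansl2, Lpar1 and Chpf. With 6 libraries and shared scaling, such likeness is a description only.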

How the data were processed

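Per the labels' protocols, an RNeasy kit was used for the RNA and a SMARTER mRNA-Seq kit for the libraries. The authors deposited a table with a count column (whole numbers per gene, not normalized) and an FPKM column for each of 6 libraries, per the file headers. The FPKM were not brought to a common sum. The aligner and counter: not given in the sources used here. The submitters' processing notes name the mouse builds GRCm38 and mm10, but rows carry rat Ensembl IDs, so the build of the values is not settled and none of their coordinates is given. Of 30610 rows, 10 without values were left out. All value columns were used.

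The libraries carry no group in the labels, so values are given per library with no test between libraries. The 8 genes and all lists were chosen with earlier results of these data known. Named genes were the members, genes of the pathway lists, up to 2 leading genes of each marker list with markers at 0, the 3 most alike genes per member, and the 3 most and least constant of 28 pairs. The S21 comparison, the markers Kit, Cpa3, Tpsab1, Cma1, Ms4a2, Sox10, Cd3d and Lck, and the length comparison of Mitf were chosen after values were seen.

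Expressed genes are annotated genes whose median reached 1 FPKM. Ranges and deviations use log2(FPKM + 1), which understates differences of low genes. Implied length is the count per FPKM and per total count, in bases, after each library's median offset was removed. Counting intervals are exact 95% Poisson intervals. Alternatives were TMM factors (edgeR 4.0.16), median-ratio factors, common sums with and without 4 globin rows, a pseudocount of 0.1, removal of medians in 20 length classes, other thresholds, and leaving out each library. CPM in place of FPKM was added after the data were seen. Computations used Python 3.11.15 with numpy 2.4.6, and the range and likeness calculations were tested on simulated counts.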

Additional observations from a re-analysis of the deposited data

How the results depend on the processing

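The range over libraries of the mean deviation of the expressed osteoclast genes, 0.62 in the deposited values, was 0.36 under TMM factors and 0.90 with a common sum of FPKM. Leaving out each library in turn gave 0.50 to 0.62. The count of genes with a range of at least 1, 3 of 8, was 6 with a pseudocount of 0.1, 1 with gene length correction, 5 at a threshold of 0.5 and 1 at a threshold of 1.5, and leaving out each library in turn gave 1 to 3. It was 1 without S10, where Ctsk alone passed. The pseudocount raised Ocstamp, Calcr and Mitf past 1 by its construction, since it compresses low values less. The cause of the other changes was not tested. Ctsk stayed lowest in S21 under all 7 alternatives that kept the 6 libraries, with ranges of 1.09 to 1.34, and so did Acp5, with 0.60 to 0.86. The highest library of Ctsk was S10 under TMM and median-ratio factors, S12 with a common sum without the globin rows, and S23 under the others. No paired analysis was possible because the labels place no library in a group. Depth limits Dcstamp, Ocstamp and Calcr, at 28 to 98 counts per library.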
